A study of Homo sapiens with 8 samples.

Results

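The genes described here are the numbered CEP, IFT and BBS genes, which encode proteins of the centrosome and of transport in the primary cilium. They were chosen by symbol alone: every coding gene listed whose name is CEP, IFT or BBS followed by a number. The rule found 58 of 19414 genes, of which 36 are CEP, 14 are IFT and 8 are BBS genes. Of these, 56 had enough reads to be tested. The rule misses proteins of the same complexes that carry other names, and those are counted apart further down.

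The data are TT-seq libraries, which sample RNA made during a pulse of the base analogue 4-thiouridine (4-SU), from U2OS, a human osteosarcoma cell line that is 1 line. The 4 groups of 2 libraries each are labelled MYC_Zab (genotype Zab + MYC O/E), MYC (MYC O/E, overexpression of the transcription factor MYC), Zab and WT. From its title, the study asks how MYC and FACT, a complex that takes nucleosomes apart and rebuilds them, bear on Z-DNA, DNA wound in the opposite sense to the usual helix. The labels do not give the construct behind Zab or how MYC was expressed, and nothing in them tells whether a group's libraries are from different cultures. The p-values therefore reflect the variation of these libraries alone, which may be technical.

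The libraries held 1839960 to 4072059 reads in coding exons, with the 2 Zab libraries lowest. Levels are given as CPM, reads of a gene relative to the reads of its library, after TMM scaling, which assumes that the bulk of genes do not change. In bulk RNA, fewer cells expressing a gene and less of its RNA per cell cannot be told apart. MYC stood at 747 and 768 CPM in the libraries labelled MYC_Zab, 6562 and 6574 in MYC, 932 and 1029 in Zab, and 772 and 747 in WT. ADAR, an enzyme that edits double-stranded RNA and can bind Z-form nucleic acid, stood at 32061 and 32157 CPM in the libraries labelled MYC_Zab, 444 and 462 in MYC, 527 and 574 in Zab, and 33757 and 33713 in WT. MYC goes against the label of the MYC_Zab libraries, whose level was about that of WT. ADAR sets MYC_Zab and WT apart from MYC and Zab, and the labels say nothing about ADAR. A group name below therefore stands for the libraries that carry that label, and each direction is theirs. Reads within a group differed by a chi-square of 1.99 to 2.05 per gene, close to the 2 that counting alone gives where reads come in twos. The libraries labelled MYC_Zab and WT differed from each other by 2.71 to 2.81, and other pairs of groups by 25.5 to 43.0. Coding reads made up 13.5 of every 100 tags in MYC_Zab, 13.7 in MYC, 6.55 in Zab and 13.1 in WT. As to cell type, VIM, SPARC, COL1A1 and CD44 were well expressed, with CD44 lowest in MYC (133 and 135 CPM, against 385 and 413 in WT). RUNX2 had 30.9 and 31.7 CPM in MYC, 4.79 and 2.12 in Zab, and 6.13 and 11 in WT. Of the other mesenchymal and bone markers, SP7, ALPL, IBSP, BGLAP and COL1A2 had at most 2.4 CPM in a library. Epithelial and blood markers summed to at most 9.96 CPM in a library. The 10 markers of multiciliated cells summed to 6.37 to 21 CPM in the Zab libraries and 10.6 to 19 CPM in the others. Of these FOXJ1, GMNC, DNAI1 and DNAH9 were at or near 0 in every library. CCDC40 had 12.6 and 0 CPM in Zab, against 7.1 and 6.76 in WT, and DNAH5 had 4.79 and 2.12 in Zab, against 4.19 and 2.84 in WT. MCIDAS had 1.20 and 1.06 CPM in Zab, against 5.81 and 4.98 in WT (log2 change -1.58, adjusted p = 0.00471 by limma). The 5 neural markers summed to 146 and 157 CPM in the Zab libraries, 64.7 and 64.9 in MYC, and 85.2 and 90.7 in WT. That sum follows TUBB3, while SYP had 1.03 and 0.492 CPM in MYC and 5.99 and 4.25 in Zab, against 14.8 and 19.2 in WT. The part of these markers in the results was not tested.

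As background, a centrosome is a pair of centrioles, barrels of microtubules, in a cloud of proteins that start new microtubules. CEP proteins build the centriole, cap and anchor it, and in resting cells let the older centriole serve as the base of a primary cilium. Trains of IFT-B carry cargo to the tip of the cilium, trains of IFT-A bring it back, and the BBSome, assembled with the help of chaperonin-like proteins, moves membrane receptors in and out. Defects in these genes cause human ciliopathies such as Bardet-Biedl and Joubert syndromes.

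CEP, IFT and BBS genes are long. Their span, the distance along the genome from the first to the last base of the transcript counted, introns included, had a median of 59.0 kb and ranged between 3.94 kb (BBS10) and 556 kb (CEP112). The 56 tested had a median span of 62.7 kb, against 29.4 kb over all 11985 genes tested. Exons counted had a median of 4314 bases in the tested CEP, IFT and BBS genes and 3518 bases in all genes tested. For 33 of the 58 genes the authors' counting picked more than 1 transcript over the libraries, up to 7 for CEP57L1. For 10 the exon length counted differed by over 10% between libraries: BBS7, CEP57, CEP57L1, CEP70, CEP83, CEP120, IFT27, IFT74, IFT81 and IFT88. It ranged between 2861 and 6966 bases for CEP57L1 and between 2582 and 3803 bases for BBS7. What part this has in the changes of these 10 genes given below was not tested. CEP19, which helps IFT trains enter the cilium, was not tested, with 0 and 6 reads in MYC_Zab, 10 and 6 in MYC, 0 and 0 in Zab, and 6 and 4 in WT. A count of 0 in the Zab libraries allows up to 3.60 and 3.19 CPM of it, taking 3 pairs of reads as the limit because reads mostly came in twos. CEP295NL was not tested either, with at most 10 reads in a library, and it lies wholly within TIMP2. RefSeq lists pseudogene copies of CEP19, CEP57L1, CEP164, CEP170, CEP192, IFT57 and IFT122, so reads of these genes may be shared with near copies.

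Promoters of 4 of these genes are shown because they are referred to below and carry motifs that differ in kind. They are the 250 bases before and 50 bases after the start given by RefSeq in GRCh38.p14, 5′ to 3′ on the strand of the gene, with motif letters in capitals. CEP290 (chr12:88142039-88142338, minus strand) had the largest drop in Zab, and its capitals mark TTTGAA, the core of the cell cycle element CHR. CEP135 (chr4:55948695-55948994, plus strand) is marked at a full X-box, the site of RFX factors, which drive cilium genes. IFT88 (chr13:20566907-20567206, plus strand) was lower in both MYC and Zab, and is marked at GTTGCC, the RFX core, here on the other strand. CEP131 (chr17:81222916-81223215, minus strand) had the largest rise in Zab, and is marked at 3 CCAAT boxes.
CEP290: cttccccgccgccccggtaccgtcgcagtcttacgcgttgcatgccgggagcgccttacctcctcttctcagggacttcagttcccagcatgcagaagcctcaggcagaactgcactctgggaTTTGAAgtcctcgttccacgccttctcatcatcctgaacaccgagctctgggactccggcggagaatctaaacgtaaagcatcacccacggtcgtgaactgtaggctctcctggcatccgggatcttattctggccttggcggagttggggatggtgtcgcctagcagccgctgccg
CEP135: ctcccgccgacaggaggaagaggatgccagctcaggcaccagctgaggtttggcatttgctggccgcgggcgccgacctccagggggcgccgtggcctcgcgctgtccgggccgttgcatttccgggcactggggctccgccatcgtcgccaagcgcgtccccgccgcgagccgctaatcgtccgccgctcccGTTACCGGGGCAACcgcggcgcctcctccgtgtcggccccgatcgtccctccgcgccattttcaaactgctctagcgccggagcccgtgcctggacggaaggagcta
IFT88: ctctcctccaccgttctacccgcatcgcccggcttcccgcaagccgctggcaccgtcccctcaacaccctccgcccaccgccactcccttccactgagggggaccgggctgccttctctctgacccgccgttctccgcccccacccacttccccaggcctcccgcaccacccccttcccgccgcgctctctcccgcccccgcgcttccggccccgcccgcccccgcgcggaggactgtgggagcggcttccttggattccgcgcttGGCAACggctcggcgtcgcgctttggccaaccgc
CEP131: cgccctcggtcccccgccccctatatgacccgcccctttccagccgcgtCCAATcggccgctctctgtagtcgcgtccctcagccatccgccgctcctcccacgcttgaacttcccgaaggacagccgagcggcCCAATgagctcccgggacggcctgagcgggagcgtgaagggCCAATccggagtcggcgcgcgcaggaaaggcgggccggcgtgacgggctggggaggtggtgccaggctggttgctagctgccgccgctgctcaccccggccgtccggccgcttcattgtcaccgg

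Per kilobase of exon counted, the levels of the 58 genes in the WT libraries ran between 0.166 CPM per kb for CEP295NL and 26.0 for CEP192, a scaffold on which new centrioles start, with CEP55, CEP85, IFT43 and IFT52 also above 17 CPM per kb. CEP55, which acts at the midbody when daughter cells part, stood at 18.7 CPM per kb in MYC_Zab, 18.6 in MYC, 8.96 in Zab and 18.7 in WT. CEP126 and IFT172 were among the lowest, at 0.750 and 0.889 CPM per kb in WT. Together the 58 genes took 0.188% ± 0.0060 of reads in MYC_Zab, 0.146% ± 0.0020 in MYC, 0.121% ± 0.00096 in Zab and 0.174% ± 0.0065 in WT (SD, n = 2). The median gene of the 58 had 87.5 and 91.5 reads in the MYC_Zab libraries, 56 and 59 in MYC, 20 and 19.5 in Zab, and 66.5 and 57.5 in WT, so values in Zab rest on the fewest reads.

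**Figure D1:**
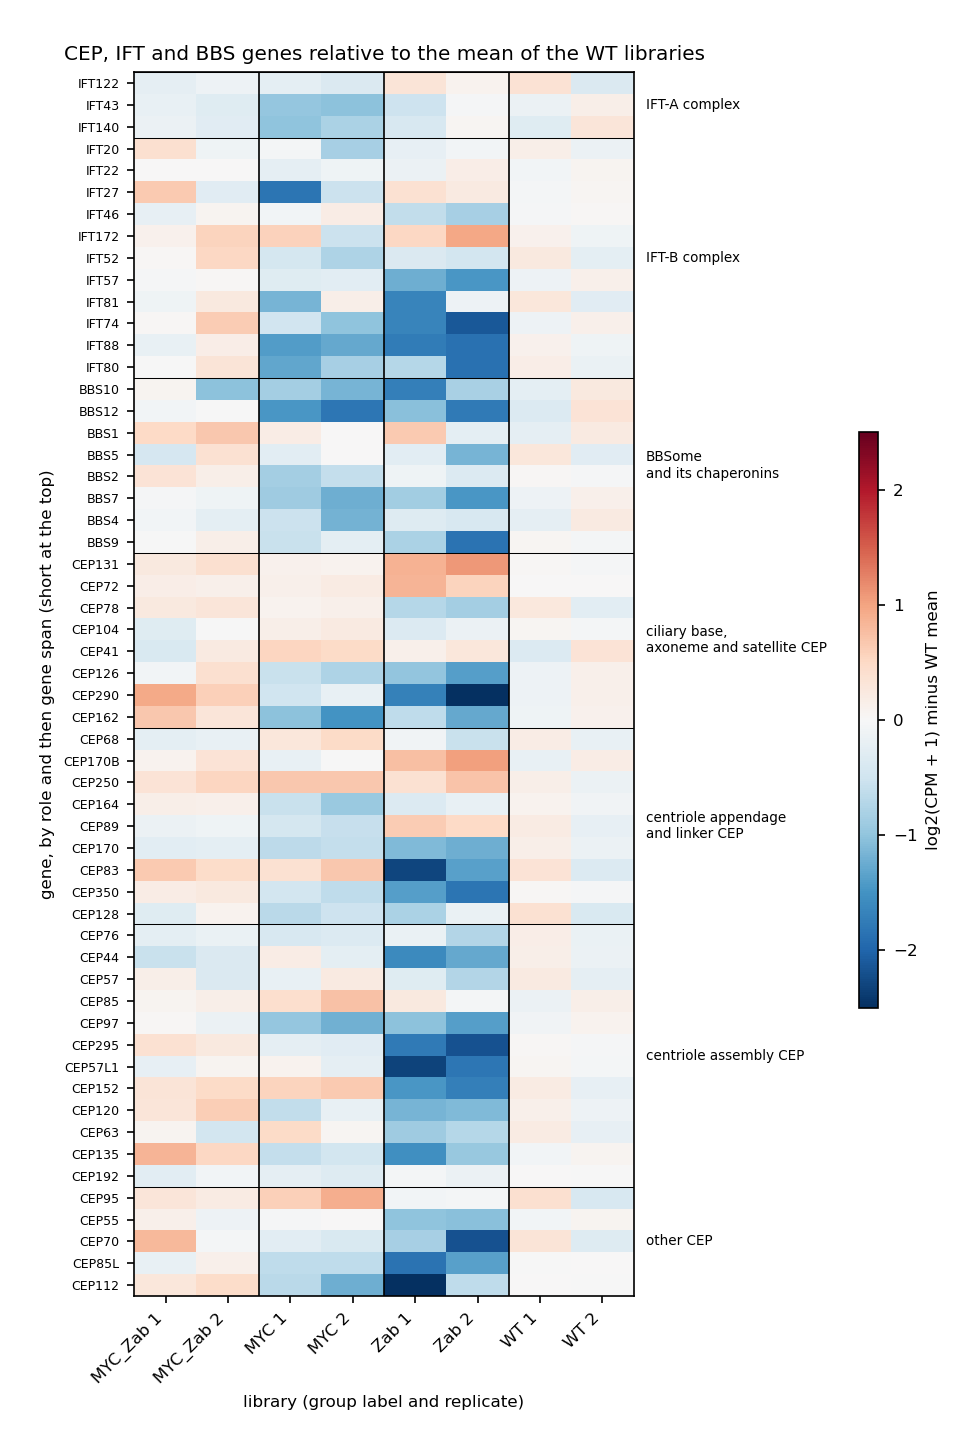
Level of each of the 56 tested CEP, IFT and BBS genes in each of the 8 libraries, as log2(CPM + 1) minus the mean of the 2 WT libraries (colour, which saturates at the ends of its scale). Genes are grouped by role and ordered by span within a role; the Zab columns are the bluest, with CEP131, CEP170B and CEP72 red, and the MYC_Zab columns are the closest to WT.

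In the libraries labelled Zab, CEP, IFT and BBS genes were mostly lower than in WT. Of the 56 tested, 27 fell and 4 rose, while 25.9% of all genes tested fell and 23.8% rose, or 49.7% in either direction. Calls are made at a Benjamini-Hochberg adjusted p under 0.05 by limma over all genes tested, with n = 2 in each group. The median log2 change was -0.76 in the 56 genes and -0.05 in all genes tested. The CEP genes had 18 of 34 lower and 4 higher, the IFT genes had 5 of 14 lower and 0 higher, and the BBS genes had 4 of 8 lower and 0 higher. Coding reads per 100 tags and depth were also lowest in Zab, and their part in these counts was not tested. On the deposited scale, which keeps the authors' own factor for each library, of unknown basis, in place of TMM, the median of all genes moved by -0.63 and 45 of the 56 genes were lower with 0 higher, beside 57.4% lower and 4.80% higher over all genes. Scaled by library totals, 36 of the 56 were lower and 4 higher, beside 34.6% and 15.8% of all genes.

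Of the genes that build centrioles 8 of 12 were lower and 0 higher, with a median of -1.17. CEP295 (chr11:93394848-93463524 in hg19, plus strand), which turns a new centriole into a working centrosome, had 10.8 and 7.96 CPM in Zab, against 40.3 and 38.4 CPM in WT. Its Zab libraries lay far below both WT libraries, a drop to a level 4.20-fold lower (log2 change -1.97 ± 0.21 SE, adjusted p = 1.33e-08). CEP152, which recruits the kinase that starts centriole duplication, had 8.99 and 7.43 CPM in Zab, against 30.6 and 22.8 CPM in WT, without overlap (log2 change -1.58 ± 0.23, adjusted p = 2.34e-06). CEP57L1, a relative of CEP57 that helps hold paired centrioles together, had 1.20 and 2.12 CPM in Zab, against 10.3 and 9.6 CPM in WT, from 2 and 4 reads in Zab and 32 and 27 in WT (log2 change -2.06 ± 0.39, adjusted p = 7.23e-05). The other 5 centriole assembly genes that fell were CEP44, CEP63, CEP97, CEP120 and CEP135, whose promoter is shown above. CEP135, part of the cartwheel from which a centriole grows, had 5.99 and 9.56 CPM in Zab, against 18.4 and 20.3 CPM in WT (log2 change -1.24 ± 0.28, adjusted p = 0.000666). CEP192 did not pass, at 197 and 183 CPM in Zab and 205 and 203 CPM in WT (log2 change -0.11). Of these, the call on CEP63 was lost with any 1 library left out but Zab replicate 2, its adjusted p reaching 0.26 without WT replicate 1.

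Among genes of the cilium base and axoneme, 3 of 8 were lower and 2 higher in Zab. CEP290, which links the microtubules of the transition zone to the ciliary membrane, spans 93.1 kb on the minus strand of chromosome 12 (chr12:88442793-88535865 in hg19). It had 6 and 0 reads in the Zab libraries, or 3.60 and 0 CPM, against 39 and 43 reads, or 12.6 and 15.3 CPM, in WT. The count of 0 allows up to 3.19 CPM in that library, taking 3 pairs of reads as the limit since reads come in twos. Both Zab libraries lay below both WT libraries (7.75-fold lower mean, log2 change -2.79 ± 0.46, adjusted p = 1.21e-05). Without Zab replicate 2, which has the 0, the change was -1.70 (adjusted p = 8.61e-05). The smallest drop called in this role was that of CEP78, a centriole wall protein (log2 change -0.78, and adjusted p = 0.101 without WT replicate 1), and CEP126, a ciliary protein with 3 to 4 reads in a Zab library, was also lower (log2 change -1.19, adjusted p = 0.03), a call lost without Zab replicate 2 (adjusted p = 0.0903), WT replicate 1 (0.0629) or WT replicate 2 (0.138). The rises were in 2 proteins of centriolar satellites, the granules that ferry material around the centrosome. CEP131 (chr17:79163396-79196765, minus strand) had 53.9 and 62.1 CPM in Zab, against 29.7 and 28.1 CPM in WT, 2.01-fold higher (log2 change 0.98 ± 0.18, adjusted p = 6.13e-05). CEP72 had 52.1 and 42.5 CPM in Zab, against 28.4 and 28.4 CPM in WT (log2 change 0.71 ± 0.19, adjusted p = 0.00289). In both, each Zab library was above each WT library.

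Among appendage and linker genes, 3 of 9 were lower and 2 higher in Zab. CEP83, needed for the distal appendages that dock a centriole to the membrane, had 1.20 and 3.19 CPM in Zab, against 12.6 and 7.47 CPM in WT, with 2 and 6 reads in Zab (log2 change -1.82 ± 0.38, adjusted p = 0.000258). CEP350 and CEP170, which bind microtubules at the centriole and its subdistal appendages, had log2 changes of -1.60 and -1.16 with more reads behind them, at 29.4 and 21.2 CPM in Zab against 79.0 and 76.5 CPM in WT for CEP350. Values went the other way for CEP170B, the paralogue of CEP170, with 156 and 191 CPM in Zab, against 81.9 and 105 CPM in WT (log2 change 0.89 ± 0.13, adjusted p = 1.92e-06). CEP250, the linker protein that ties the pair of centrosomes together, had 81.5 and 102 CPM in Zab, against 69.0 and 55.8 CPM in WT (log2 change 0.55 ± 0.14, adjusted p = 0.00145, and 0.0587 without WT replicate 2). CEP164, a distal appendage protein, did not pass, at 56.9 and 63.2 CPM in Zab and 77.1 and 67.9 CPM in WT. The 4 rises in Zab depend on scaling, since on the deposited scale none was called and CEP250 stood at -0.08.

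Of the remaining CEP genes, 4 of 5 were lower in Zab. CEP55 had 24.0 and 23.4 CPM in Zab, against 47.4 and 51.6 CPM in WT, with libraries of each group close together (2.09-fold lower, log2 change -1.03 ± 0.17, adjusted p = 1.63e-05). CEP112, the longest of the genes, had 0 and 6.37 CPM in Zab, against 10.6 and 10.3 CPM in WT (log2 change -2.08 ± 0.55, adjusted p = 0.00283). That drop rests on Zab replicate 1, with 0 reads, and without it the change was -0.64 (adjusted p = 0.178), while without Zab replicate 2 it was -3.54. CEP70 and CEP85L were lower too, with log2 changes of -1.50 and -1.60, but CEP70 lost its call without Zab replicate 2 (adjusted p = 0.107) and without WT replicate 1 (adjusted p = 0.106).

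Of the transport genes, 5 of 11 in IFT-B and 0 of 3 in IFT-A were lower in Zab and none was higher. IFT74 (chr9:26947298-27066132, plus strand), which with IFT81 carries tubulin, had 4.79 and 3.19 CPM in Zab, against 15.8 and 18.8 CPM in WT (4.34-fold lower, log2 change -1.89 ± 0.33, adjusted p = 3.37e-05). IFT88 (chr13:21141296-21265583, plus strand), a core subunit without which mouse cells form no normal cilia, had 2.40 and 2.12 CPM in Zab, against 11.3 and 9.6 CPM in WT, from 4 reads in each Zab library (log2 change -1.81 ± 0.40, adjusted p = 0.000485). IFT57, IFT80 and IFT46 were the other IFT-B genes that fell, and of these IFT80 lost its call without Zab replicate 2 (adjusted p = 0.225) or either WT library, and IFT46 without WT replicate 2 (adjusted p = 0.0539). IFT20, which moves cargo out of the Golgi, did not pass, with 9.59 and 10.6 CPM in Zab and 12.6 and 9.96 CPM in WT. IFT172, a peripheral IFT-B subunit, had 7.19 and 10.1 CPM in Zab and 5.16 and 4.27 CPM in WT, and did not pass either (log2 change 0.74). The IFT-A subunit IFT140 overlapped between groups, with 22.2 and 30.8 CPM in Zab and 23.9 and 37.0 CPM in WT. For its partner IFT43 these were 12.6 and 18.1 CPM in Zab and 16.5 and 20.6 CPM in WT. Whether IFT-A and IFT-B genes differ in their change was not tested.

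In the BBSome, BBS7 and BBS9 fell in Zab, as did BBS10 and BBS12, which encode chaperonin-like proteins that help it assemble. BBS7 had 13.2 and 8.49 CPM in Zab, against 22.6 and 27.4 CPM in WT (log2 change -1.16 ± 0.28, adjusted p = 0.00117). BBS12 had 2.40 and 1.06 CPM in Zab, against 4.52 and 7.82 CPM in WT (log2 change -1.40 ± 0.49, adjusted p = 0.0208). BBS10, the shortest gene, had 2.40 and 5.31 CPM in Zab, against 8.39 and 12.1 CPM in WT (log2 change -1.26 ± 0.44, adjusted p = 0.0195). The calls on BBS9, BBS10 and BBS12 each turned on a library, since the adjusted p was 0.065 for BBS9 without Zab replicate 2, 0.144 for BBS10 without Zab replicate 1 and 0.105 for BBS12 without Zab replicate 2. For the last 2 genes it was 0.157 and 0.177 without WT replicate 2. BBS1 overlapped, with 16.8 and 8.49 CPM in Zab and 8.71 and 12.1 CPM in WT, and so did not pass. BBS4 had 16.8 and 15.9 CPM in Zab and 18.1 and 24.9 CPM in WT, without overlap but not past the threshold (log2 change -0.36). Over all roles, 17 of the 27 drops and 3 of the 4 rises in Zab were called with each of the 8 libraries left out in turn.

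**Figure D2:**
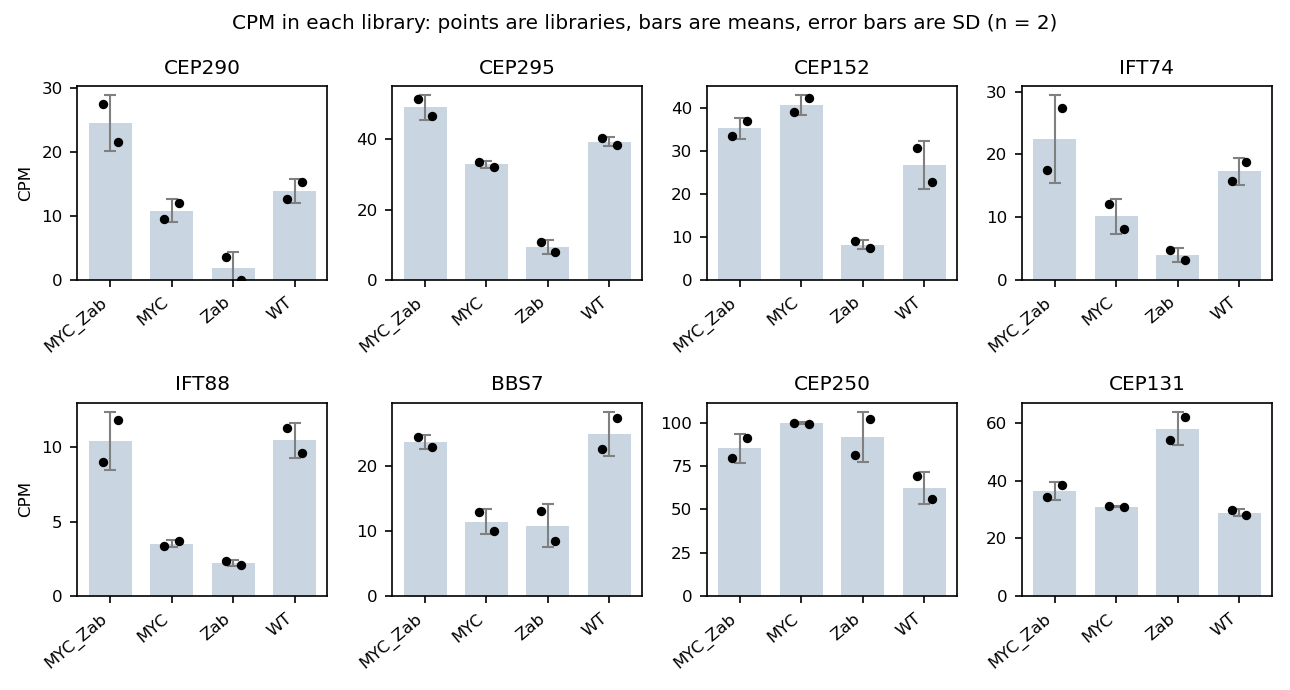
CPM in each library for 8 CEP, IFT and BBS genes, with points for libraries, bars for group means and error bars for SD (n = 2), groups from left to right MYC_Zab, MYC, Zab and WT. CEP290, CEP295, CEP152 and IFT74 are lowest in Zab, IFT88 and BBS7 are low in both MYC and Zab, CEP250 is lowest in WT, and CEP131 is highest in Zab.

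In the libraries labelled MYC fewer of these genes changed. Of the 56 tested, 13 fell and 4 rose, beside 21.8% lower and 22.2% higher among all genes tested (44% in either direction), so the share that fell (23.2%) was near that of all genes and the share that rose (7.14%) was below it. The median log2 change was -0.36 in the 56 genes and -0.01 in all genes tested. This comparison uses the same WT libraries as the one of Zab. The total of 17 calls was 8 without MYC replicate 2 and 10 without WT replicate 2, and 7 with the WT pair and the MYC_Zab pair each taken as 1 sample. Fewer genes were called over all genes too under those settings. On the deposited scale the median of all genes was 0.47, that of the 56 genes was 0.11, and 15 were higher and 3 lower, beside 48.7% higher and 9.59% lower over all genes.

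The drops in MYC were in genes of transport and of the BBSome as well as in CEP genes. IFT88 had 3.35 and 3.69 CPM in MYC, against 11.3 and 9.6 CPM in WT, 2.97-fold lower and without overlap (log2 change -1.34 ± 0.40, adjusted p = 0.00767). IFT43 had 9.01 and 8.61 CPM in MYC, against 16.5 and 20.6 CPM in WT (log2 change -0.99 ± 0.29, adjusted p = 0.00713). IFT140 had 14.4 and 16.7 CPM in MYC, against 23.9 and 37.0 CPM in WT (log2 change -0.89 ± 0.25, adjusted p = 0.0042). Thus 2 of 3 IFT-A genes fell, and 2 of 11 IFT-B genes, IFT88 and IFT52. These 4 calls were each lost without some library, at adjusted p = 0.0656 for IFT88 without WT replicate 1, 0.0551 for IFT88 without MYC replicate 1, 0.0865 for IFT43 and 0.137 for IFT140 without WT replicate 2, 0.057 for IFT140 without MYC replicate 1, and 0.375 for IFT52 without WT replicate 1. IFT52 was also not called without MYC replicate 1, MYC replicate 2 or MYC_Zab replicate 2. IFT20 had 10.8 and 5.91 CPM in MYC, overlapping the 12.6 and 9.96 CPM in WT, and IFT172 had 7.47 and 2.95 CPM in MYC around the 5.16 and 4.27 CPM in WT.

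BBS12 (chr4:123653857-123666098, plus strand) had the largest drop called in MYC, with 1.55 and 0.984 CPM in MYC, against 4.52 and 7.82 CPM in WT (4.88-fold lower, log2 change -1.63 ± 0.49, adjusted p = 0.0084). It rests on 6 and 4 reads in MYC. BBS7 had 12.9 and 10.1 CPM in MYC, against 22.6 and 27.4 CPM in WT (log2 change -1.06 ± 0.28, adjusted p = 0.00284). BBS4, a subunit that also binds satellites, had 14.4 and 8.86 CPM in MYC, against 18.1 and 24.9 CPM in WT (log2 change -0.85 ± 0.28, adjusted p = 0.016). Without MYC replicate 2 the adjusted p was 0.079 for BBS12, 0.0514 for BBS7 and 0.243 for BBS4, and without WT replicate 2 it was 0.11 for BBS12 and 0.183 for BBS4. BBS10 stood apart between groups, with 5.15 and 3.94 CPM in MYC and 8.39 and 12.1 CPM in WT, but did not pass (adjusted p = 0.0654), and BBS1 had 11.8 and 10.3 CPM in MYC within the 8.71 to 12.1 CPM of WT.

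CEP97 (chr3:101443458-101489406, plus strand), which caps the centriole end with CP110 and holds back cilium growth, had 18.0 and 15.3 CPM in MYC, against 34.2 and 38.4 CPM in WT (2.18-fold lower, log2 change -1.08 ± 0.23, adjusted p = 0.00035). CEP164 had 48.7 and 37.6 CPM in MYC, against 77.1 and 67.9 CPM in WT (log2 change -0.74 ± 0.15, adjusted p = 0.000182). CEP97, CEP164 and CEP170 were called lower in MYC with each library left out in turn, and CEP250 higher. On the deposited scale CEP97 and CEP250 kept their calls. CEP164 was at -0.26 there (adjusted p = 0.147 by limma) and CEP170 at -0.13 (adjusted p = 0.397), so neither was called. CEP192, called lower with TMM scaling, was called higher there (0.22, adjusted p = 0.0409). CEP162, which marks the axoneme for the transition zone, had 2.06 and 1.23 CPM in MYC, against 4.84 and 5.69 CPM in WT, from 8 and 5 reads in MYC (log2 change -1.26 ± 0.47, adjusted p = 0.0303, and 0.19 without MYC replicate 2). It was not called either without MYC_Zab replicate 1, MYC replicate 1 or either WT library. CEP192 changed little in size, with 174 and 163 CPM in MYC, against 205 and 203 CPM in WT (1.21-fold lower, log2 change -0.28, adjusted p = 0.0114). Its call was lost without MYC replicate 2 (adjusted p = 0.128) or either WT library, and once the trend along gene span was removed (log2 change -0.15, adjusted p = 0.172). CEP350 also fell (log2 change -0.55), but not without MYC replicate 2 (adjusted p = 0.0948) or WT replicate 1 (adjusted p = 0.0542).

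The 4 genes that rose in MYC are CEP genes. CEP250 (chr20:34043419-34107108, plus strand) had 100 and 99.4 CPM in MYC, against 69.0 and 55.8 CPM in WT (1.60-fold higher, log2 change 0.68 ± 0.14, adjusted p = 0.000189). CEP85, which takes part in centriole duplication through STIL, had 92.2 and 114 CPM in MYC, against 61.9 and 75.7 CPM in WT (log2 change 0.58 ± 0.14, adjusted p = 0.00145, and 0.0736 without MYC replicate 2). CEP95 had 37.9 and 47.2 CPM in MYC, against 32.9 and 18.5 CPM in WT (log2 change 0.75 ± 0.23, adjusted p = 0.00951), with WT replicate 2 the lowest of all 8 libraries. Without that library the adjusted p was 0.289, and without MYC replicate 2 it was 0.143. CEP152 had 39.1 and 42.3 CPM in MYC, against 30.6 and 22.8 CPM in WT (log2 change 0.61 ± 0.23, adjusted p = 0.0347). That call was lost without any 1 of the MYC libraries, the MYC_Zab libraries or WT replicate 2, at adjusted p = 0.0537 to 0.287. CEP55 did not pass, with 48.4 and 50 CPM in MYC and 47.4 and 51.6 CPM in WT, and CEP290 did not pass, with 9.53 and 12.1 CPM in MYC and 12.6 and 15.3 CPM in WT.

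The calls are listed side by side, and since both comparisons use the same WT libraries nothing is read from how many they share. Called lower in both Zab and MYC were BBS7, BBS12, CEP97, CEP170, CEP350 and IFT88. CEP250 was higher in both, and CEP152 was lower in Zab and higher in MYC. Another 20 genes were called lower in Zab and not called in MYC, among them CEP290, CEP295 and IFT74. In MYC, 7 were called lower and not called in Zab: BBS4, CEP162, CEP164, CEP192, IFT43, IFT52 and IFT140. CEP85 and CEP95 were called higher in MYC and not called in Zab, and CEP131, CEP170B and CEP72 higher in Zab and not called in MYC. The remaining 16 were called in neither, and among these are IFT20, IFT22, IFT122, IFT172, BBS1, BBS2 and BBS5.

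Setting MYC against Zab directly tests those differences. Of the 56 genes, 22 were higher in MYC than in Zab and 8 lower, beside 29.6% higher and 26.7% lower among all genes tested, with a median log2 difference of 0.40 in the 56 and 0.05 in all. Of the genes called lower in MYC and not called in Zab, BBS4, CEP162, CEP192 and IFT52 did not pass here. Nor did BBS10, CEP112, CEP126 and IFT80, which were called lower in Zab and not called in MYC. Centriole assembly genes were higher in MYC for 8 of 12 and lower for 0, or for 5 and 1 with the trend along gene span removed. CEP290 (9.53 and 12.1 CPM in MYC against 3.60 and 0 in Zab) differed by 2.45 on the log2 scale (adjusted p = 5.07e-05, and 1.36 without Zab replicate 2), CEP83 (12.9 and 16.2 CPM against 1.20 and 3.19) by 2.35, and CEP152 (39.1 and 42.3 CPM against 8.99 and 7.43) by 2.18 (adjusted p = 6.67e-09). CEP57L1 (10.6 and 8.37 CPM in MYC against 1.20 and 2.12 in Zab) differed by 1.99 and CEP295 (33.5 and 32.2 CPM against 10.8 and 7.96) by 1.72. Lower in MYC than in Zab were CEP131, CEP170B and CEP72, which had risen in Zab, together with CEP89, CEP164, IFT27, IFT43 and IFT140. For IFT140 (-0.71) and IFT43 (-0.71), both of IFT-A, the adjusted p was 0.0155 and 0.039. The call on IFT140 was lost without MYC replicate 1 (adjusted p = 0.117) or Zab replicate 2 (0.138), and that on IFT43 without any 1 library but Zab replicate 1 and WT replicate 1, at -0.46 (adjusted p = 0.23) without Zab replicate 2. That on CEP164 was lost without MYC replicate 2 (adjusted p = 0.179), that on CEP72 without either MYC library or Zab replicate 1 (adjusted p = 0.051 to 0.12), and that on IFT27 without MYC replicate 1 (-0.84, adjusted p = 0.244) and by DESeq2 (0.0519). None of these 8 was called lower on the deposited scale, where 43 of the 56 and 75.1% of all genes were higher. There the values of CEP131, CEP164, CEP170B, CEP72, IFT140 and IFT43 changed sign. CEP164 (0.63, adjusted p = 0.000364 by limma) and CEP72 (0.55, adjusted p = 0.00914) were called higher in MYC on that scale. For 11 of the 22 higher genes and 3 of the 8 lower ones the call held with each library left out in turn. With the trend along gene span removed, 17 of the 56 were higher in MYC and 11 lower, beside 27.7% and 27.4% of all genes. BBS9, CEP70, CEP85, CEP120 and CEP135 were then no longer called higher.

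The libraries labelled MYC_Zab did not differ detectably from WT in these genes. None of the 56 passed by limma, beside 0.134% higher and 0.467% lower among all genes tested (0.601% in either direction), and the median log2 change was 0.07. At an unadjusted p under 0.05, 2 genes differed, CEP250 and CEP135, both higher, with 79.4 and 91.1 CPM in MYC_Zab against 69.0 and 55.8 in WT for CEP250 (log2 change 0.45 ± 0.14, adjusted p = 0.206). For CEP135 these were 35.6 and 28.1 CPM in MYC_Zab against 18.4 and 20.3 in WT (log2 change 0.68 ± 0.28, adjusted p = 0.517). edgeR and DESeq2 on the recovered reads also called 0 of the 56, and the deposited scale called 6 of the 56 higher, beside 14.6% of all genes, with the median of all genes at 0.27. CEP290 had the largest estimate, with 27.6 and 21.5 CPM in MYC_Zab against 12.6 and 15.3 in WT, above both WT libraries but not past the threshold (log2 change 0.77).

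**Figure D3:**
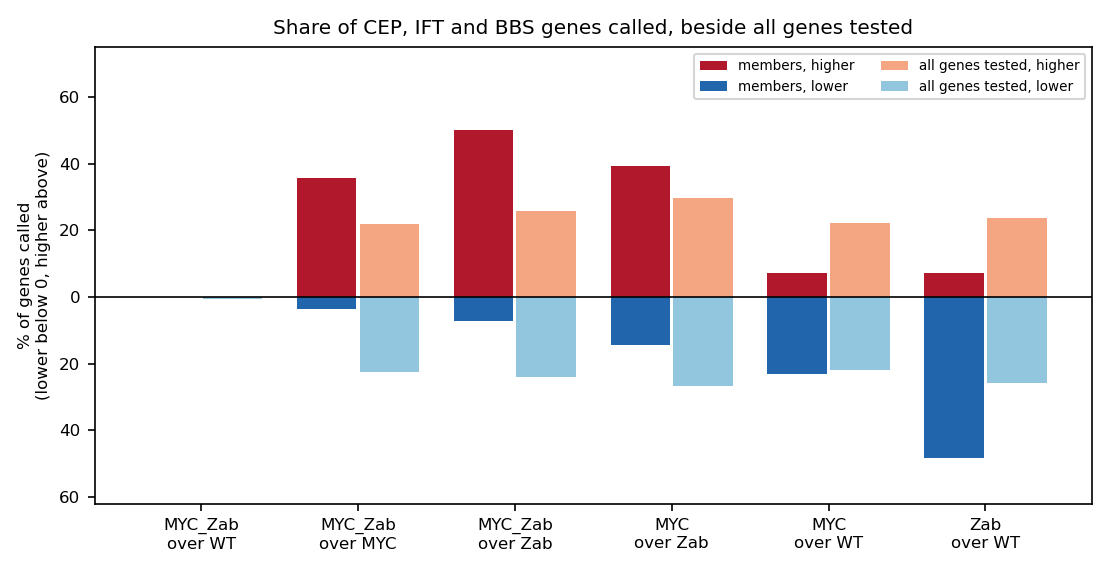
Share of the 56 tested CEP, IFT and BBS genes called higher (above 0) or lower (below 0) in each of the 6 pairwise comparisons, beside the same shares of all 11985 genes tested. In Zab over WT 48.2% of the 56 were lower against 25.9% of all genes, and in MYC_Zab over WT none was called.

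Against the other labelled groups the MYC_Zab libraries were mostly higher in these genes. In MYC_Zab over MYC, 20 of 56 were higher and 2 lower, beside 21.9% and 22.6% of all genes. CEP162 (9.02 and 6.66 CPM in MYC_Zab against 2.06 and 1.23 in MYC) had the largest difference, 1.75 on the log2 scale (adjusted p = 0.00319). BBS12 (5.67 and 5.92 CPM in MYC_Zab against 1.55 and 0.984 in MYC) followed at 1.60. Without MYC_Zab replicate 1 the adjusted p was 0.0609 for CEP162 and 0.061 for BBS12, and BBS12 was also lost without MYC_Zab replicate 2 (0.0708) or MYC replicate 2 (0.0865). CEP164 (80.4 and 79.5 CPM in MYC_Zab against 48.7 and 37.6 in MYC) differed by 0.89 with the smallest adjusted p, 1.91e-05. CEP68, which holds the centrosome linker, and CEP85 were the 2 lower genes, at -0.58 and -0.47, and CEP68 lost its call without any 1 of the MYC_Zab and MYC libraries (adjusted p = 0.0611 to 0.188), CEP85 without MYC_Zab replicate 1 (0.0697) or MYC replicate 2 (0.187). The total of 22 was 9 without MYC_Zab replicate 1, 8 without MYC_Zab replicate 2, 11 without MYC replicate 1, 9 without MYC replicate 2, and 6 with the WT and MYC_Zab pairs each taken as 1 sample.

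In MYC_Zab over Zab, 28 of 56 were higher and 4 lower, beside 25.8% and 24.1% of all genes (49.9% in either direction). CEP290 (27.6 and 21.5 CPM in MYC_Zab against 3.60 and 0 in Zab) differed by 3.56 on the log2 scale (adjusted p = 2.73e-07). CEP112 (12.9 and 14.8 CPM against 0 and 6.37) differed by 2.45, but by 1.01 without Zab replicate 1 (adjusted p = 0.0318) and 3.91 without Zab replicate 2. CEP83 (16.0 and 13.8 CPM against 1.20 and 3.19) differed by 2.39 and CEP295 (51.5 and 46.6 CPM against 10.8 and 7.96) by 2.28. Among the 28 higher genes, BBS12, CEP44, CEP70, CEP126, CEP162, CEP164, IFT46, IFT52 and IFT80 lost their call with some 1 library left out. CEP131, CEP170B, CEP72 and CEP89 were the 4 lower in MYC_Zab than in Zab, at -0.55 to -0.69. Leaving out 1 library ended the call on CEP131 (adjusted p = 0.0549 without MYC_Zab replicate 1), and leaving out either MYC_Zab library or Zab replicate 1 ended those on CEP72 (0.0711 to 0.126) and CEP89 (0.0934 to 0.125). The deposited scale gave 48 higher and 0 lower, beside 73.5% and 1.98% of all genes, and library totals gave 32 and 1, beside 35.8% and 14.5%. The total of 32 was 21 with the WT and MYC_Zab pairs each taken as 1 sample. With those pairs so taken, calls over all genes were fewer as well, here and in MYC_Zab over MYC. With the trend along gene span removed, MYC_Zab over Zab had 22 higher and 7 lower, beside 19.2% and 28.6% of all genes. MYC_Zab over MYC then had 13 and 2, beside 18.4% and 26.7% of all genes. The difference between MYC_Zab over MYC and Zab over WT was itself past the threshold in 37 of the 56, 32 positive and 5 negative, beside 53.1% of all genes.

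Gene span went with the change in Zab. Over all genes tested, the median log2 change in Zab over WT was 0.21 for spans up to 20 kb, -0.08 for 20 to 50 kb, -0.25 for 50 to 100 kb, -0.27 for 100 to 200 kb and -0.41 above 200 kb. CEP, IFT and BBS genes had medians of -0.14 (5 genes), -0.28 (20), -1.01 (18), -1.44 (10) and -1.32 (3) in the same ranges, so their medians lay below those of all genes in each range, although the first and last hold few genes. Among the 18 genes of 50 to 100 kb, 10 were lower (CEP290, CEP295 and CEP152 among them) and 1, CEP250, higher, while 35.5% of all genes of that span were lower. Among the 10 of 100 to 200 kb, 7 were lower and 0 higher, while 35.2% of all genes of that span were lower, and CEP162, CEP192 and IFT140 in that range did not pass. BBS10 and BBS12, both under 20 kb, fell too. Spearman's rho between change and span was -0.444 over the 56 genes and -0.295 over all 11985, as a description across genes, which share libraries and are not independent.

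With the trend of each library along span removed, 23 of the 56 were lower in Zab and 6 higher, against 20% and 26.9% of all genes. CEP290 stayed at -2.47 (adjusted p = 6.29e-05), CEP295 at -1.68 and IFT74 at -1.54, while BBS9, CEP63, CEP126 and IFT80 were no longer called lower. CEP89 was among those then called higher, at 0.89 (adjusted p = 0.00636), with 27.6 and 25.0 CPM in Zab against 20.3 and 14.9 CPM in WT. In MYC over WT the medians of all genes were 0.01, 0.03, -0.01, -0.06 and -0.27 over the same ranges, and those of the CEP, IFT and BBS genes were -1.01, 0.04, -0.38, -0.69 and -0.59. With the trend removed there, 11 of the 56 were lower and 4 higher, beside 19% and 25.3% of all genes, and CEP192 and IFT52 were no longer called. The exon share of a gene, which falls as introns lengthen, and its level in WT had rho of 0.279 and 0.212 with the change in Zab over the 56 genes, so span cannot be told apart from what goes with it.

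**Figure D4:**
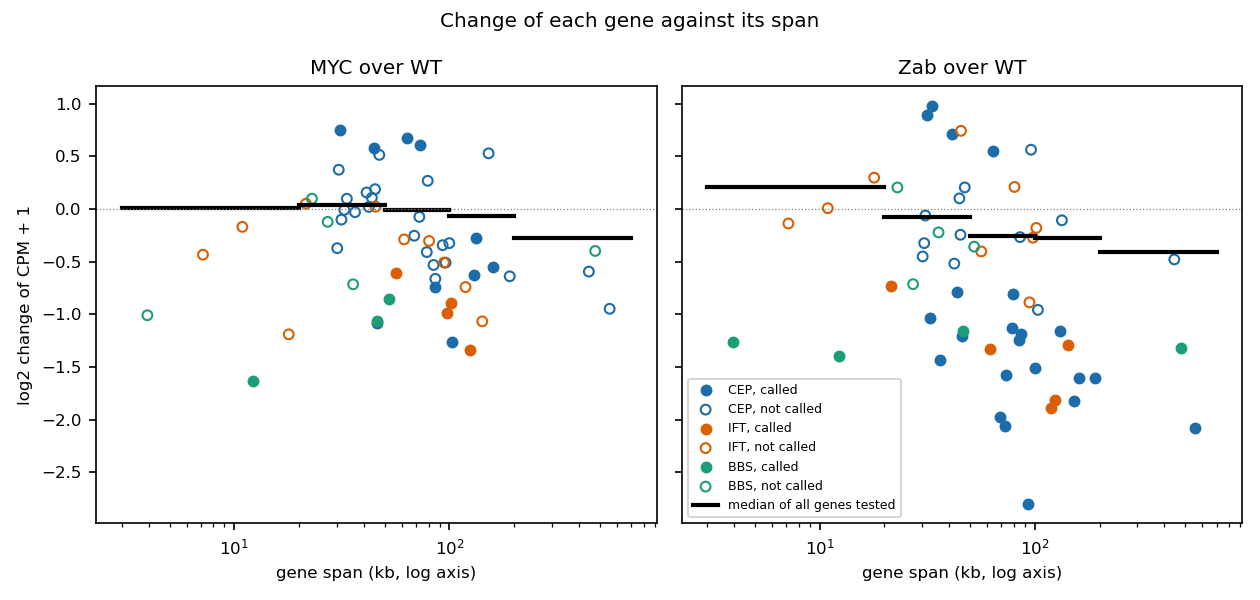
log2 change of CPM + 1 against gene span (kb, log axis) for each of the 56 tested CEP (blue), IFT (orange) and BBS (green) genes, filled where called, in MYC over WT (left) and Zab over WT (right). Black bars are medians of all genes tested in 5 ranges of span, and the points in Zab over WT lie mostly below the bars above 50 kb.

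The motifs of the promoters shown above were counted in all 51 of the 58 genes with a RefSeq promoter, on both strands of the same 300 bases, with shares of the 9707 tested genes that have one beside them. They were chosen with the results known and are a description. GTTGCC, the core of the RFX site, was present in 20 of 51 (39.2%), against 16.7% of tested genes and 12.2% of all 35116 promoters. Of those 20, 10 fell in Zab and 3 in MYC, while 25 of all 51 fell in Zab. The full X-box was present in CEP135 alone (1.96% against 0.752% of tested genes), and it holds a GTTGCC that was counted too. TTTGAA was present in 15 (29.4% against 13.8%), of which 10 fell in Zab, with CEP55, CEP152, CEP290 and CEP295 among the 15. CACGTG, the E-box bound by MYC, was present in 5 (9.80% against 12.9%): CEP63, CEP83, CEP120, CEP162 and IFT81. CCAAT was in 27 (52.9% against 43.5%), GGGCGG in 38 (74.5% against 78.4%), TGACGTCA in 6 (11.8% against 3.98%) and CCGGAAGT in 5 (9.80% against 10.5%). TTTCGCGC was in 3 (5.88% against 1.26%), and TTTGGCGC and the NRF1 site were in 0, against 1.37% and 2.70% of tested genes. The last motif searched, a palindrome, was in IFT74 alone. The median G and C content was 61.3% in the 51 promoters and 65.0% in tested genes, and it was 62.3% in the 25 that fell in Zab and 60.3% in the 23 that were not called.

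Other genes of the same complexes were counted from lists that hold no CEP, IFT or BBS number, 128 genes with 119 tested. In Zab over WT 41 of the 119 fell and 19 rose, beside 25.9% and 23.8% of all genes, with a median of -0.34. In MYC over WT 21 of the 119 fell and 18 rose, beside 21.8% and 22.2% of all genes, with a median of -0.12. In MYC_Zab over WT 0 fell and 1 rose. On the list of the BBSome and its chaperonins, MKKS, ARL6 and BBIP1 fell in Zab, with 4 of 5 lower. ARL6 had 6.59 and 0 CPM in Zab, against 9.68 and 17.8 CPM in WT (log2 change -2.36). The size of that drop rests in part on the library at 0. BBIP1 had 1.20 and 5.31 CPM in Zab, against 17.7 and 10.3 CPM in WT (log2 change -1.97, adjusted p = 0.00042). MKKS, a chaperonin-like protein, was lower in both Zab (-0.97) and MYC (-0.61). Among IFT-A genes with other names, TTC21B was lower in Zab (-1.30) and in MYC (-0.95), while WDR35 was lower in Zab (-0.94) and higher in MYC (0.56).

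Of the other centrosome genes named here, AKAP9 and PCM1, from the list of the pericentriolar material, had the largest drops in Zab. AKAP9 had 10.8 and 11.7 CPM in Zab, against 41.6 and 63.3 CPM in WT (log2 change -2.10, adjusted p = 2.84e-10), and PCM1, the core protein of satellites, had 18.0 and 22.3 CPM in Zab, against 71.0 and 69.3 CPM in WT (log2 change -1.76, adjusted p = 3.42e-10). Over that list, however, 4 of 16 fell and 6 rose in Zab, with MZT2B, a partner of γ-tubulin complexes, at 0.88. Among other centriole genes 9 of 25 fell and 3 rose, with CNTRL at -1.74, NIN at -1.08 and ODF2 at 0.64. Of 11 motor genes 3 fell and 1 rose, and DYNC2H1, the heavy chain of the motor that drives IFT-A trains back, had 8.99 and 13.8 CPM in Zab, against 33.5 and 41.2 CPM in WT (log2 change -1.65, adjusted p = 4.26e-07). KIF3A, of the outward motor, was at -1.58. In the transition zone 10 of 21 fell and 1 rose, with AHI1 at -1.63, RPGR at -1.43 and TMEM107, a short gene of 3.92 kb, at 1.46. Cilium signalling and disassembly lists moved both ways, with 2 of 15 lower and 3 higher and 2 of 9 lower and 3 higher, and the mitotic kinase PLK1 was higher in both Zab (1.08) and MYC (1.09). NEDD9, which activates Aurora A at the cilium, had the largest drop in MYC of the named genes, with 3.61 and 1.97 CPM in MYC, against 24.5 and 30.6 CPM in WT (log2 change -2.94, adjusted p = 1.45e-08). Of 7 tested RFX and multiciliated cell regulators, 3 fell and 1 rose in Zab, and RFX7 was lower in Zab (-0.75) and higher in MYC (0.75).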

How the data were processed

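Per the file headers, the authors ran HOMER's analyzeRepeats over the exons of RefSeq coding genes (hg19), on the opposite strand, with 1 transcript for each symbol in each library. STAR, bedtools 2.29.2, SAMtools 1.11 and Trim Galore 0.6.6 appear in the submitters' processing notes, as do the builds dm6 and hg19, with no role stated. The deposited values are a signal, whole reads multiplied by 1 number in each library; what set that number was not stated. Dividing by the step recovered reads that were whole within 0.02 for 99.95% to 100% of values.

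limma 3.58.1 (R 4.3.3, trend in the prior variance) was fitted to log2(CPM + 1), with CPM from the deposited signal by TMM in edgeR 4.0.16, over 11985 genes kept by filterByExpr at 10 reads, with 8 libraries, a term per group and 4 residual degrees of freedom. Changes on this scale understate those of low genes, and folds are ratios of mean CPM. An exact permutation of 2 against 2 libraries cannot go below p = 0.333. The method was tested on simulated reads, with changes placed only in MYC over WT and only in genes with many reads. It recovered 32% of log2 changes of 0.5, 92% of 1, 88% of -1 and 100% of 2. This does not cover genes with few reads. Alternatives include edgeR's quasi-likelihood test and DESeq2 1.42.0 on the recovered reads, which called 23 and 14 of the 56 genes in MYC over WT and 28 and 24 in Zab over WT. Over all genes edgeR called 2912 higher and 2864 lower in MYC over WT, and 2820 and 2878 in Zab over WT. DESeq2 called 3 of the 56 higher and 11 lower in MYC over WT, beside 19.4% and 19% of all genes. In Zab over WT it called 4 higher and 20 lower, beside 20.3% and 18.5% of all genes. By edgeR the 56 had 4 higher and 19 lower in MYC over WT, and 4 and 24 in Zab over WT.

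Members, lists and motifs were chosen with earlier results of these data known. Values in every library are given for the 6 largest rises and falls called in MYC, Zab and MYC_Zab over WT and for 13 genes fixed by name, with others added after their values were seen. From each list of other genes come at most 3, those with the smallest p. Limits for a count of 0 use 3 pairs of reads and cover counting error only.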

Additional observations from a re-analysis of the deposited data

Results flagged for a closer look

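The change between Zab and WT differed from the change between MYC_Zab and MYC in many of these genes. This difference of differences, called the interaction, was tested in the same limma fit: 32 of the 56 genes were higher and 5 lower, beside 28.3% higher and 24.8% lower among all genes tested, with medians of 1.06 and 0.11. It draws on all 8 libraries, including the MYC_Zab libraries, whose MYC level goes against their label. By construction it equals the change of MYC_Zab over WT less those of MYC and of Zab over WT.

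Among the genes named by rule, its log2 values were largest for CEP290 (3.91), CEP112 (3.39, and 1.96 without Zab replicate 1), IFT88 (3.14), BBS12 (2.99), IFT74 (2.96), CEP162 (2.70) and CEP295 (2.54). In CEP290, the MYC_Zab libraries were above MYC (27.6 and 21.5 CPM against 9.53 and 12.1) while the Zab libraries were below WT (3.60 and 0 CPM against 12.6 and 15.3). Lower among these were CEP97 (2.23), BBS7 (2.15), CEP57L1 (2.06), CEP83 (1.86), BBS10 (1.79), CEP152 (1.38), CEP164 (1.15), BBS4 (1.05), CEP55 (1.04), IFT43 (1.02) and IFT140 (0.86). Of the other genes called, IFT80 (2.51), CEP135 (2.46), CEP350 (2.36), CEP85L (2.22) and CEP70 (2.20) exceeded BBS7. Several of these positive calls were also lost when 1 library was left out. BBS10 was then at 1.24 without MYC_Zab replicate 1, and BBS4 at 0.72 without MYC replicate 2. IFT43 was at 0.78 without Zab replicate 1, IFT140 at 0.56 without WT replicate 2, and CEP70 at 1.76 without MYC_Zab replicate 1. For BBS10, BBS4, IFT43 and IFT140, leaving out other libraries ended the call too.

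The interaction ran the other way for CEP250 (-0.78), CEP131 (-0.75), CEP72 (-0.71), CEP170B (-0.58) and CEP85 (-0.57). Without 1 library the call was lost for CEP131 (adjusted p = 0.0706 without MYC_Zab replicate 1), for CEP170B (0.0899 without WT replicate 1, and also without MYC_Zab replicate 1 or MYC replicate 2) and for CEP85 (0.148 without MYC replicate 2, and also without MYC_Zab replicate 1, Zab replicate 1 or WT replicate 1). That of CEP72 was lost without any 1 library but Zab replicate 2 (adjusted p = 0.052 to 0.0867). On the deposited scale 38 genes were higher and 0 lower, beside 42.1% higher and 15.3% lower over all genes, so the lower calls depend on the scaling. With the trend along gene span removed, 25 were higher and 6 lower, beside 21.8% and 29.6% of all genes.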

How the results depend on the processing

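Each result was recomputed under 21 other settings. Over 46 gene and comparison pairs, 834 of the values kept direction and call, 86 kept direction only and 8 reversed, all 8 on the deposited scale. These include CEP192 in MYC over WT at 0.22, CEP250 in Zab over WT at -0.08, and in MYC over Zab CEP131 at 0.22, CEP164 at 0.63, CEP170B at 0.13, CEP72 at 0.55, IFT140 at 0.36 and IFT43 at 0.32. On the deposited scale CEP192 in MYC over WT, and CEP164 and CEP72 in MYC over Zab, were called higher. The median of the 56 genes in MYC over WT was 0.11 on that scale, and MYC_Zab over WT had 6 calls. Genes with 1 transcript throughout, of which 24 of the 56 remain, gave 11 calls for MYC against WT and 13 for Zab against WT. MYC_Zab against MYC had 10, MYC_Zab against Zab 10, MYC against Zab 13 and the interaction 16. In the same order, 23.4%, 24.4%, 23.6%, 27.2%, 30.7% and 31.3% of all genes in that setting were higher. The shares lower were 24.1%, 27.8%, 23.7%, 24.1%, 28.1% and 25.6%. The median log2 change of the 24 was -0.45 in Zab against WT and -0.46 in MYC against WT, where the 56 had -0.76 and -0.36. All genes in that setting had medians of -0.06 and -0.02. Fewer genes were tested in that setting, and what part this has in the counts was not tested. With the WT and MYC_Zab pairs each taken as 1 sample, so that fewer samples enter, MYC against WT had 7, MYC_Zab against MYC 6, MYC_Zab against Zab 21 and the interaction 23, and over all genes MYC against WT had 15.8% higher and 13.1% lower. Leaving out each library gave 8 to 25 calls for MYC against WT, 25 to 33 for Zab against WT, 0 to 0 for MYC_Zab against WT, 8 to 26 for MYC_Zab against MYC, 23 to 32 for MYC_Zab against Zab, 19 to 30 for MYC against Zab (19 without MYC replicate 2) and 27 to 38 for the interaction. A lone library is then assumed to vary like the other groups. The number of calls over all genes moved under these settings as well, and with the WT and MYC_Zab pairs each taken as 1 sample. These ranges are therefore not read as a trait of the 56 genes. Over all genes edgeR called 49 higher and 97 lower for MYC_Zab against WT, and DESeq2 called 12 and 114. The interaction by library totals had 36 of the 56 higher and 1 lower, beside 38.3% and 17.8% of all genes.

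Same-numbered libraries did not deviate together (r of -0.0262 to 0.00988), so no effect shared by replicate number was detected. Deviations within a group were near counting noise, so this cannot tell whether the numbers mark a common preparation. With the replicate number as a block MYC against WT had 4 higher and 13 lower (17 calls), beside 22.3% and 21.8% of all genes. Zab against WT had 4 and 27 (31 calls), beside 23.8% and 26% of all genes. MYC_Zab against MYC then had 21 and 2 (23 calls), beside 21.9% and 22.6% of all genes. Depth limits the Zab libraries most, where the median gene had 20 reads.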

Other observations

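Values of some paralogues and partners are given side by side. CEP170 fell in Zab (log2 change -1.16, adjusted p = 3.15e-08) while CEP170B rose (0.89), and their levels in the MYC libraries were 69.5 and 72.8 CPM for CEP170 against 122 and 99.6 in WT, and 81.1 and 92 CPM for CEP170B, overlapping the 81.9 and 105 CPM of WT. CEP57L1 fell in Zab, whereas CEP57, at 23.4 and 17.0 CPM in Zab and 34.2 and 24.5 CPM in WT, did not pass (log2 change -0.52, adjusted p = 0.0825). CEP85L fell in Zab (-1.60), and CEP85, at 81.5 and 66.4 CPM in Zab and 61.9 and 75.7 CPM in WT, did not pass (0.10). Whether the members of a pair differ in their change was not tested.

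IFT81, the partner of IFT74, had 1.20 and 5.31 CPM in Zab and 7.42 and 4.62 CPM in WT, which overlap, and was not called (log2 change -0.89 ± 0.51). IFT27, a small GTPase of IFT-B, had 0.515 and 2.71 CPM in MYC, from 2 and 11 reads, against 4.19 and 4.62 CPM in WT, without overlap but not past the threshold (adjusted p = 0.054), and it was lower in MYC than in Zab (log2 difference -1.49, adjusted p = 0.0128, but -0.84 and 0.244 without MYC replicate 1, which had 2 reads).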
